A study of Mus musculus with 6 samples.

Results

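Serine synthesis and folate one-carbon enzymes were followed in mouse CD4 T cells cultured with fine airborne particles (PM2.5) or with vehicle. They are 9 genes chosen by symbol, Phgdh, Psat1, Psph, Shmt1, Shmt2, Mthfd1, Mthfd2, Mthfd1l and Aldh1l2, out of 34745 genes in the deposited table, and each symbol was found there once. All 9 passed the filter on low counts and were tested, Aldh1l2 only through the libraries of cells cultured with PM2.5. The starting cells were splenic naive CD4 T cells of C57BL/6 mice, an inbred strain, female and 6 weeks old, and the labels name no altered gene. Both groups were stimulated with plate-bound antibodies to CD3 and CD28 for 4 days and polarised towards Th17, the IL-17 producing T helper lineage, with IL-6, IL-23, TGF-beta, IL-2 and antibodies against IFN-gamma and IL-4. The PM2.5 group (3 libraries) had a suspension of airborne fine particles at 100 µg/ml added 6 h after stimulation, and the PBS group (3 libraries) had the vehicle instead.

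Serine is made from the glycolytic intermediate phosphoglycerate in a short chain of reactions. Phgdh, the phosphoglycerate dehydrogenase, carries out the first step, Psat1, an aminotransferase that takes its amino group from glutamate, the next, and Psph, the phosphoserine phosphatase, the last. Serine hydroxymethyltransferases then move a carbon from serine onto tetrahydrofolate and leave glycine. This happens in the cytosol (Shmt1) and in mitochondria (Shmt2). In mitochondria the carbon is oxidised by Mthfd2 and released as formate by Mthfd1l, or as carbon dioxide by Aldh1l2. In the cytosol the trifunctional enzyme Mthfd1 takes up formate and feeds purine, thymidylate and methionine synthesis. Dividing T cells depend on this supply for nucleotides, and several of these genes are known targets of the stress transcription factor ATF4.

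The libraries held 19511561 to 22353131 counts in the PBS group and 25397965 to 27215853 in the PM2.5 group. Every PM2.5 library was therefore deeper than every PBS library. A count of 0 leaves room for a level of 0.110 to 0.154 CPM (counts put on a common scale of library size), taken as 3 counts and covering counting error alone. Nothing in the labels says that replicates came from separate cultures or animals, and the spread behind the p-values may thus be technical. The list of 9 T helper identity genes, which holds Cd3e, Cd4, Il17a and Il17f among others, summed to 4886 to 4949 CPM in the PBS libraries and 3771 to 4243 CPM in the PM2.5 libraries. Of these 9, 8 fell and 1, the costimulatory receptor gene Cd28, rose. By the same edgeR test (adjusted p under 0.05), 35.3% of all 12967 genes tested fell and 35.2% rose. Markers of other cells moved with the groups as well. The CD8 and gamma-delta T cell list (5 of 6 genes tested, 4 lower and 1 higher) went from 75.3 to 77.8 CPM down to 28.3 to 31.7 CPM. The NK cell list (3 of 6 tested, 1 lower and 2 higher) went from 45.1 to 54.6 CPM down to 31.6 to 32.2 CPM, with Ncr1 and Klra8 at 0 in all libraries. That fall was carried by Klrd1 (34.8 to 43.2 CPM in PBS, 6.65 to 7.39 CPM with PM2.5). Nkg7 (10.2 to 12.5 CPM, then 23.1 to 24.6 CPM) and Eomes (0.0513 to 0.0895 CPM, then 0.766 to 1.1 CPM) rose. Stromal and endothelial markers (4 of 6 tested, 3 lower and 0 higher), mostly Pecam1, went from 84.1 to 89.9 CPM down to 49.1 to 51.3 CPM. The B cell list (2 of 7 tested, 1 higher and 1 lower) went from 4.56 to 5.73 CPM up to 20.9 to 21.8 CPM, a rise carried by Ebf1 (3.38 to 3.88 CPM in PBS, 20.4 to 21.4 CPM with PM2.5), while Cd79b went from 0.513 to 0.903 CPM down to 0.0383 to 0.157 CPM and Ms4a1 was at 0. The neutrophil list (1 of 6 tested, lower), mostly Ly6g, went from 5.28 to 6.27 CPM down to 0.551 to 0.689 CPM, with S100a8 and S100a9 at 0. The macrophage list (1 of 7 tested, lower) went from 4.97 to 6.32 CPM down to 2.94 to 3.48 CPM, with Lyz2 at 0. It was mostly Cd68 (4.21 to 5.42 CPM in PBS, 2.46 to 2.83 CPM with PM2.5). Csf1r was lower with PM2.5 as well, and Cd14 overlapped between the groups. The dendritic list (2 of 6 tested, 1 higher and 1 lower) went from 0.948 to 1.30 CPM up to 2.56 to 3.50 CPM, with Clec9a at 0. That rise was carried by Zbtb46 (0.361 to 0.626 CPM in PBS, 2.37 to 3.11 CPM with PM2.5). Itgax went from 0.497 to 0.626 CPM down to 0.191 to 0.276 CPM. The erythroid list was at 0.135 CPM or less in every library. The part of these other cells in the results below was not tested.

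All 9 enzyme genes rose with PM2.5, and in each of them every PM2.5 library lay above every PBS library. The rises ran from 1.16-fold for the cytosolic Mthfd1 to 87.9-fold for the mitochondrial Aldh1l2, with a median of 3.99-fold, which is 2.00 on the log2 scale against a median of -0.007 over all genes tested. Across all 12967 genes tested, 70.6% changed and 35.2% rose by the same criterion, an adjusted p under 0.05 in edgeR's quasi-likelihood test, and 37.4% had PM2.5 values wholly above the PBS values. At least 2-fold rises were seen in 6 of the 9, Phgdh, Psat1, Psph, Shmt2, Mthfd2 and Aldh1l2, against 6.51% of all genes tested. Aldh1l2 is counted among the 9 and the 6, although it passed the filter on low counts only through the group where it was high. The 9 genes were chosen with earlier results of these data known. In RNA from whole cultures, more cells of a type and more RNA per cell cannot be told apart.

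**Figure D1:**
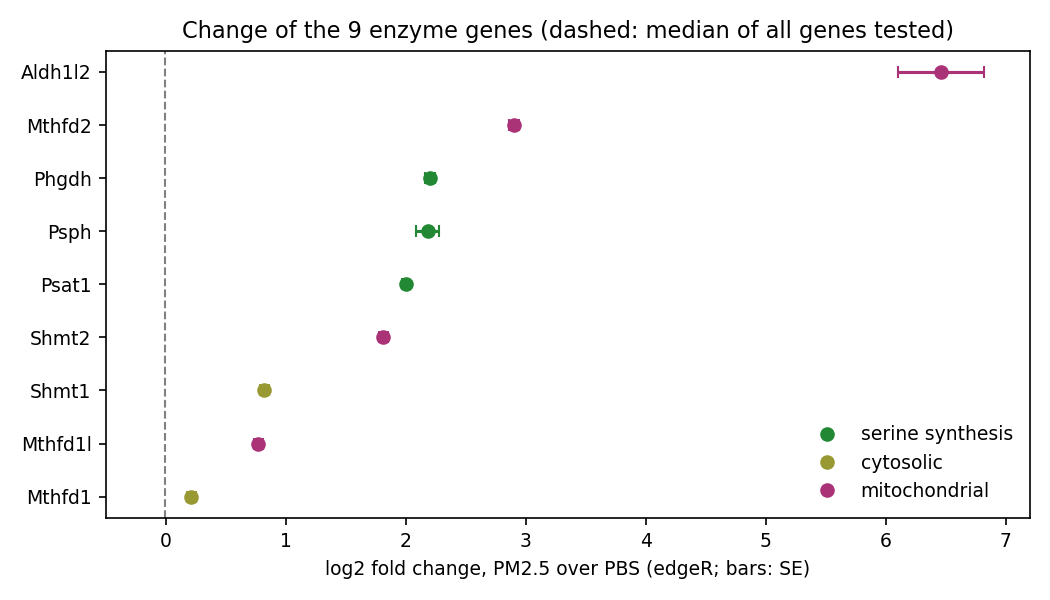
Log2 fold change (PM2.5 over PBS, edgeR) of the 9 enzyme genes on the horizontal axis, 1 row per gene, with bars of 1 SE and colours for the place of the enzyme. Every point lies to the right of the dashed line, the median of all genes tested at -0.007; Aldh1l2 stands at 6.46 and Mthfd1 at 0.21.

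The promoter windows of the genes that rose most are shown here, since these genes moved together and their windows can be searched for the same motifs. The RefSeq table of promoter windows (GRCm38.p6, 250 bases before to 50 after each transcript start) held 9 windows for 8 of the 9 genes, with 2 for Psat1 and none for Aldh1l2. Windows are given 5′ to 3′ on the strand of the gene, for the genes that rose at least 3-fold (1 of the 2 windows for Psat1), with CCAAT and its reverse complement ATTGG in capitals.
Phgdh, chr3:98339920-98340219, minus strand: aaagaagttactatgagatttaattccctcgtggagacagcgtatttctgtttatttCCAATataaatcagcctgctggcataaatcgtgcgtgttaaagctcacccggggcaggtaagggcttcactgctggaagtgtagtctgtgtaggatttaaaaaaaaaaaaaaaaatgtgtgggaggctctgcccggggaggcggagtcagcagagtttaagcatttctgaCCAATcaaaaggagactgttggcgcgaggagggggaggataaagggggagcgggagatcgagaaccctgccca
Psat1, upstream window, chr19:15925010-15925309, minus strand: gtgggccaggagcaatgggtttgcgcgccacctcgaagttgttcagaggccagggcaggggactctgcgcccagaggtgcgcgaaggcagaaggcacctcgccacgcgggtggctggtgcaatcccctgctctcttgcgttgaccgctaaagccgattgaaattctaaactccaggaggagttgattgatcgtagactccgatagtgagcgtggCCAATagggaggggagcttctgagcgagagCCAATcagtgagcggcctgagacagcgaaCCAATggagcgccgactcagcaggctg
Psph, chr5:129787204-129787503, minus strand: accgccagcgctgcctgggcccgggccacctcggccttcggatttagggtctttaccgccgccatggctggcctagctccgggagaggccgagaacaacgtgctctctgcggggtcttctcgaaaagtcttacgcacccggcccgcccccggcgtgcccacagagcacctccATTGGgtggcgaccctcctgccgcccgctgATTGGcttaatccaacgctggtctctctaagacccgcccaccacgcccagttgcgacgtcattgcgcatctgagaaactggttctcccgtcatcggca
Mthfd2, chr6:83317555-83317854, minus strand: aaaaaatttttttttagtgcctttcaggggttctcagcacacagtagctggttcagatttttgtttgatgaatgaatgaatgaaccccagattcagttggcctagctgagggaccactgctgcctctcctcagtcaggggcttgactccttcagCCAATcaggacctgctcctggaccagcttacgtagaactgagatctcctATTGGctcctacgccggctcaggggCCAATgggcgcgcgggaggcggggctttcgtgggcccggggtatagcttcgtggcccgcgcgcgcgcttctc
Shmt2, chr10:127522395-127522694, minus strand: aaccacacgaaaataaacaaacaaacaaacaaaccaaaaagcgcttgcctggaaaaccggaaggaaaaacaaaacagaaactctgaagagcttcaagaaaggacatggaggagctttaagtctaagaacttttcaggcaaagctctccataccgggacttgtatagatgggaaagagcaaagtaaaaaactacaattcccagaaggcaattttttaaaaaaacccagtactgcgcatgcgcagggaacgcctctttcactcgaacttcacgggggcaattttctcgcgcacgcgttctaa

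A total of 3 motifs were searched on both strands of these windows: TGATGNAA, the core of the C/EBP-ATF response element that ATF4 binds, CACGTG, the E-box, and TGACGTCA, the cAMP response element. None of the 9 windows holds any of them. The 12002 windows of genes tested here hold TGATGNAA in 2.30% of cases, CACGTG in 9.92% and TGACGTCA in 3.16%. The absence says only that these letters are not in these 300 bases. CCAAT, read on both strands and searched after the windows had been seen, is in 6 of the 9 windows, against 37.9% of the windows of genes tested. The upstream Psat1 window and the Mthfd2 window hold it 3 times each, which 5.07% of the windows reach, Phgdh and Psph hold it 2 times, and Shmt1 and Mthfd1, which rose less than 2-fold, hold it 1 time. Shmt2, which rose 3.50-fold, and Mthfd1l hold none, and the other Psat1 window, whose bases are not printed above, holds none either. Windows with and without the letters are thus found among the larger and the smaller rises. These matches are descriptions and no binding was measured.

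The 3 enzymes of serine synthesis rose between 3.99-fold and 4.60-fold, and differences among these folds were not tested. Phgdh (ENSMUSG00000053398, mm10 chromosome 3, 98313170 to 98339990) stood at 29.8, 26.8 and 28.3 FPKM (counts scaled by library total and by gene length) in the PBS libraries and at 122, 125 and 126 FPKM in the PM2.5 libraries. The lowest PM2.5 library was 4.10 times the highest PBS library. The log2 fold change was 2.20 (SE 0.04, edgeR adjusted p = 2.78e-11). Psat1 (ENSMUSG00000024640, chromosome 19, 15904678 to 15947337) had the tightest replicates of the set in the PBS group, at 14.9, 15.0 and 15.1 FPKM, and stood at 57.3, 57.8 and 56.6 FPKM with PM2.5. Its groups were likewise far apart (log2 fold change 2.00, SE 0.03, edgeR adjusted p = 7.31e-12). Psph (ENSMUSG00000029446, chromosome 5, 129765558 to 129787449) was the lowest of the 3, at 3.01, 3.31 and 2.52 FPKM against 12.9, 13.1 and 12.3 FPKM. Its PBS replicates were the most spread of the 3, with a coefficient of variation of 13.5% against 5.29% for Phgdh and 0.912% for Psat1. The groups did not overlap, and the rise of Psph was 2.18 on the log2 scale (SE 0.09, edgeR adjusted p = 1.28e-07).

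Some reads of these genes could be placed elsewhere, and how such reads were counted is not given in the sources used here. GENCODE M21 lists 19 other loci that match the Phgdh transcript at 90.4 to 98.7% identity over at least 200 bases, none of which has a row in the table as used here. It lists 1 such locus for Psat1 (91.0% over 1056 bases) and 1 for Shmt2 (90.1% over 233 bases), also without a row. Psph shares 452 bases of exon with Cct6a on the opposite strand, a subunit gene of the cytosolic chaperonin, which is 10.4% of the exon bases of Psph. Cct6a rose by 0.51 (SE 0.03) on the log2 scale, less than Psph. The part of such shared reads in the Phgdh, Psat1, Psph and Shmt2 values was not tested.

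**Figure D2:**
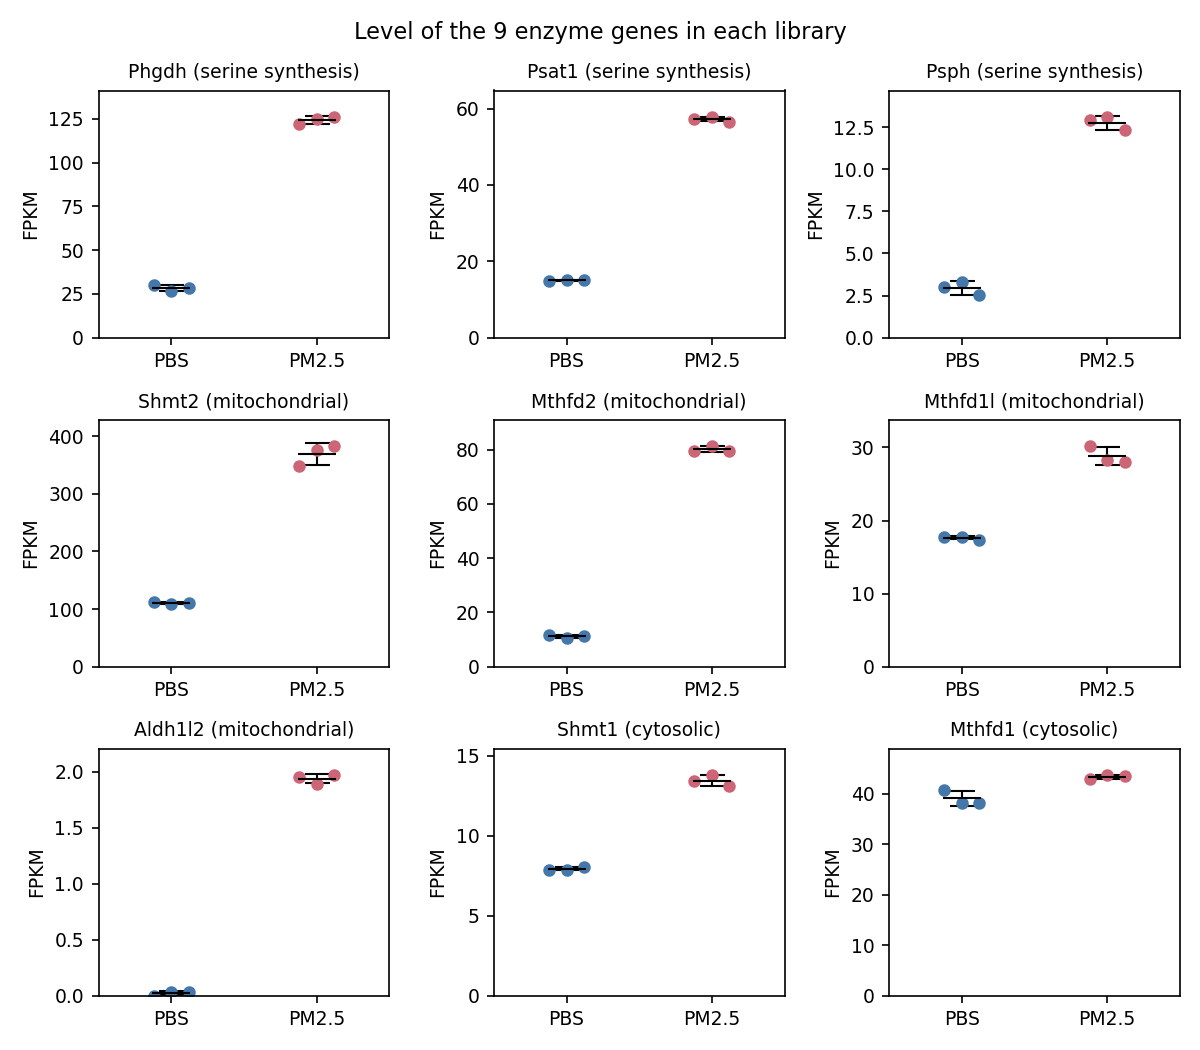
FPKM of the 9 enzyme genes in each library, 1 panel per gene with its own linear axis from 0, points for the 3 PBS and 3 PM2.5 libraries and lines for the mean ± SD. In each panel all PM2.5 points lie above all PBS points, with the narrowest gap relative to its level for Mthfd1 (40.8 FPKM at most in PBS, 42.9 FPKM at least with PM2.5).

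Among the mitochondrial enzymes the rises were uneven. Shmt2, the mitochondrial hydroxymethyltransferase and the most abundant of the 9 in both groups (ENSMUSG00000025403, chromosome 10, 127517123 to 127522444), stood at 112, 108 and 111 FPKM in the PBS libraries and at 348, 376 and 383 FPKM with PM2.5. The first PM2.5 library was the lowest of its group and still 3.11 times the highest PBS library. Its log2 fold change was 1.81 (SE 0.04, edgeR adjusted p = 6.34e-11). Mthfd2, the dehydrogenase and cyclohydrolase of the mitochondrial branch (ENSMUSG00000005667, chromosome 6, 83305691 to 83325908), went from 11.8, 10.6 and 11.2 FPKM to 79.5, 81.3 and 79.3 FPKM. That was a rise of 7.47-fold (log2 fold change 2.90, SE 0.04, edgeR adjusted p = 7.31e-12), and 0.717% of all genes tested rose more. Mthfd1l, the formate-releasing synthetase (ENSMUSG00000040675, chromosome 10, 3973118 to 4167081), was at 17.8, 17.7 and 17.4 FPKM in the PBS libraries and at 30.2, 28.3 and 28.0 FPKM with PM2.5. It rose only 1.71-fold (log2 fold change 0.77, SE 0.04, edgeR adjusted p = 3.02e-08), the smallest rise of the 4 mitochondrial genes.

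Aldh1l2, the mitochondrial formyltetrahydrofolate dehydrogenase (ENSMUSG00000020256, chromosome 10, 83487450 to 83534140), was close to undetected in the PBS group. It passed the filter on low counts only through its PM2.5 libraries, so its call as higher is in part set by that filter. Its PBS libraries held 0, 8 and 8 counts and its PM2.5 libraries 588, 548 and 555 counts, or 0, 0.0369 and 0.0322 FPKM against 1.95, 1.89 and 1.97 FPKM. The log2 fold change was 6.46 (SE 0.36, edgeR adjusted p = 8.53e-06), the 13th largest rise of all genes tested. The size of this fold rests on 16 counts in the PBS group: it was 5.86 without PBS replicate 1, 6.93 without PBS replicate 2, 6.82 without PBS replicate 3, 4.06 on log2(FPKM + 0.1) and 1.52 on log2(FPKM + 1). Even with PM2.5 it remained the lowest of the 9 per length. Aldh1l2 shares 1056 bases of exon (14.1% of its exon bases) with D10Wsu102e on the opposite strand, which had 5636 counts over the PBS libraries and 8838 over the PM2.5 libraries and rose by 0.41 (SE 0.03) on the log2 scale. Whether reads of D10Wsu102e entered the Aldh1l2 counts was not tested.

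The cytosolic enzymes rose less than 2-fold. Shmt1 (ENSMUSG00000020534, chromosome 11, 60788104 to 60811718) stood at 7.87, 7.88 and 8.07 FPKM in the PBS libraries and at 13.4, 13.8 and 13.1 FPKM with PM2.5. The rise was 1.77-fold (log2 fold change 0.82, SE 0.04, edgeR adjusted p = 3.14e-08), close in size to that of the mitochondrial Mthfd1l. Shmt1 shares 184 bases of exon (4.74%) with Smcr8 on the opposite strand, which rose by 0.16 on the log2 scale. Mthfd1 (ENSMUSG00000021048, chromosome 12, 76255232 to 76319820) was the second most abundant of the 9 in the PBS group, at 40.8, 38.2 and 38.2 FPKM, and stood at 42.9, 43.7 and 43.5 FPKM with PM2.5. Its groups were separated by little, the lowest PM2.5 library being 1.05 times the highest PBS library, and it rose 1.16-fold (log2 fold change 0.21, SE 0.04, edgeR adjusted p = 3.91e-04). With library totals in place of TMM scaling, which moved the median of all genes by -0.06, the rise of Mthfd1 was 0.15 (adjusted p = 0.00375, between 2.44e-05 and 0.00555 over 14 alternatives).

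The order of the levels changed between the groups. Per FPKM the PBS order was Shmt2 (110.3 ± 1.84, SD, n = 3), Mthfd1 (39.1 ± 1.50), Phgdh (28.3 ± 1.50), Mthfd1l (17.6 ± 0.204), Psat1 (15.0 ± 0.137), Mthfd2 (11.2 ± 0.605), Shmt1 (7.94 ± 0.111), Psph (2.95 ± 0.399) and Aldh1l2 (0.0231 ± 0.0201). No neighbours in that order overlapped. With PM2.5 the order was Shmt2 (369 ± 18.7), Phgdh (124 ± 2.12), Mthfd2 (80.0 ± 1.10), Psat1 (57.2 ± 0.622), Mthfd1 (43.4 ± 0.418), Mthfd1l (28.8 ± 1.20), Shmt1 (13.4 ± 0.333), Psph (12.8 ± 0.464) and Aldh1l2 (1.94 ± 0.0405), and only Shmt1 and Psph overlapped. Mthfd2 moved from the sixth to the third place and Mthfd1 from the second to the fifth. Shmt2 lay above 97.7% of all genes tested in FPKM in the PBS group and above 99.5% with PM2.5, and Mthfd2 above 68.4% and 96.5%.

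Levels between genes depend on the length used, which a change between groups does not. The lengths behind the deposited FPKM ran from 2305 bases for Shmt2 to 11100 bases for Aldh1l2, and the longest coding transcripts of GENCODE M21 from 1733 bases for Psph (6425 bases in the FPKM) to 6027 bases for Aldh1l2. Per kilobase of that longest transcript, an alternative chosen after seeing the data, Shmt2 stayed first in both groups, at 111 and 371. In the PM2.5 group Mthfd2 (190.4 ± 2.61) and Phgdh (188 ± 3.22) then overlapped, and Psph (47.4 ± 1.72) came ahead of Mthfd1 (44.5 ± 0.429). In the PBS group Phgdh (42.8 ± 2.27), Mthfd1 (40.1 ± 1.54) and Psat1 (39.9 ± 0.364) lay close together and overlapped as neighbours.

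Related enzymes were compared within each library through 4 ratios, 3 of a mitochondrial to a cytosolic enzyme and 1 between a pair of mitochondrial enzymes. The ratio of Shmt2 to Shmt1 in FPKM was 14.2, 13.7 and 13.8 in the PBS libraries and 26.0, 27.3 and 29.2 with PM2.5, 1.98-fold higher. Shmt2 made up 93.2 to 93.4% of the summed Shmt1 and Shmt2 FPKM in PBS and 96.3 to 96.7% with PM2.5. The levels of the ratios and shares, though not the fold changes of the ratios, depend on the gene lengths used. Per kilobase of the longest coding transcript, Shmt2 stood at 111 in PBS and 371 with PM2.5, and Shmt1 at 15.9 and 26.8. The ratio of Mthfd2 to Mthfd1 went from 0.289, 0.278 and 0.292 to 1.85, 1.86 and 1.82, a change of 6.45-fold. The ratio of Mthfd1l to Mthfd1 went from 0.437, 0.463 and 0.455 to 0.703, 0.647 and 0.643, a change of 1.47-fold. Mthfd2l, a mitochondrial paralogue of Mthfd2, fell while Mthfd2 rose, so that the ratio of Mthfd2 to Mthfd2l went from 14.3, 12.3 and 14.4 to 229.9, 183 and 155. For each of the 4 ratios all PM2.5 libraries lay above all PBS libraries, and the two-sided exact permutation test gave p = 0.1, also after adjustment over the 4, the smallest p that 3 libraries against 3 allow.

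**Figure D3:**
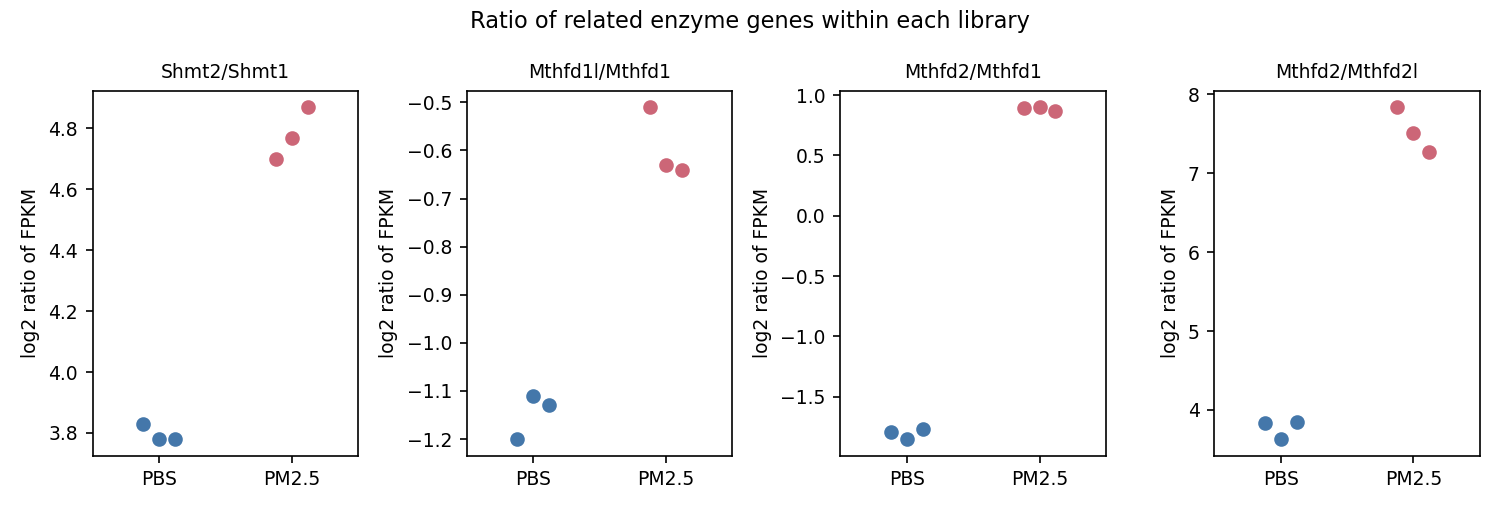
Log2 ratio of FPKM between related enzyme genes in each library, 1 panel per ratio with its own axis, points for the 3 PBS and 3 PM2.5 libraries. All PM2.5 points lie above all PBS points; the mean log2 ratio of Mthfd2 to Mthfd1 goes from -1.80 to 0.88, and that of Shmt2 to Shmt1 from 3.80 to 4.78.

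Summed over the set, the 9 genes took 0.0819, 0.0778 and 0.0793% of all FPKM in the PBS libraries and 0.251, 0.260 and 0.263% with PM2.5, 3.24-fold more. The 3 serine synthesis genes went from 0.0158 ± 0.000515% to 0.0686 ± 0.000413% (SD, n = 3), 4.33-fold. The 4 mitochondrial folate genes went from 0.0477 ± 0.00103% to 0.169 ± 0.00580%, 3.55-fold, most of it Shmt2. The 2 cytosolic genes went from 0.0161 ± 0.000573% to 0.0201 ± 0.000128%, 1.24-fold. Each sum was higher in all PM2.5 libraries (exact permutation p = 0.1, the smallest possible). Among the 6 folate genes the mitochondrial ones held 74.4 to 75.1% of the FPKM in PBS and 89.1 to 89.7% with PM2.5. These shares depend on the gene lengths behind the FPKM.

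**Figure D4:**
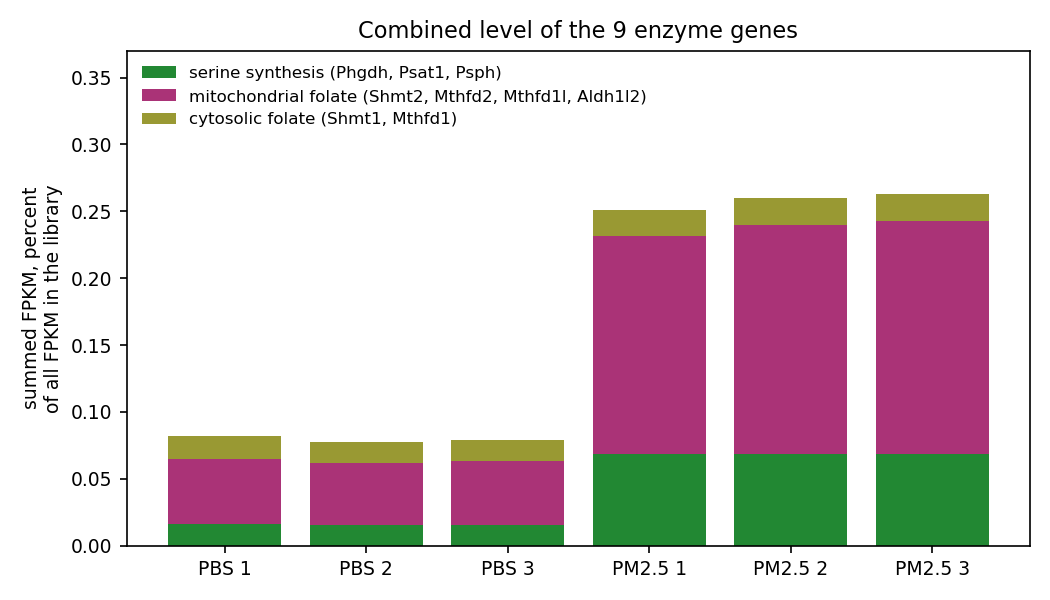
Summed FPKM of the enzyme genes in each of the 6 libraries, as percent of all FPKM of the library, stacked by serine synthesis, mitochondrial folate and cytosolic folate genes. The PM2.5 bars reach 0.251 to 0.263% and the PBS bars 0.0778 to 0.0819%, and the cytosolic part changes least.

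The other genes of the pathway did not all move with these 9. Over 5 lists of folate, glycine cleavage, serine and glycine, methionine cycle and purine genes, 52 of 65 could be tested, of which 23 rose (44.2%, against 35.2% of all genes tested), 16 fell (30.8%, against 35.3%) and 13 did not pass. The 14 other folate enzymes and carriers tested, out of 17 listed, comprised 5 that rose, 7 that fell and 2 that did not pass. Their median log2 fold change was -0.15. Slc25a32, the carrier that brings folate into mitochondria, rose 1.87-fold, from 5.54 ± 0.420 to 9.89 ± 0.718 FPKM (SD, n = 3). Slc19a1, the reduced folate carrier of the plasma membrane, rose 1.77-fold, and Fpgs, which adds the glutamate tail that keeps folate in the cell, rose 1.56-fold. The proton-coupled folate transporter Slc46a1 fell 3.41-fold, from 1.26 ± 0.0260 to 0.353 ± 0.0328 FPKM.

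The paralogues of 2 of the enzymes went the other way. Aldh1l1, the cytosolic counterpart of Aldh1l2, was at 0.342 ± 0.0822 FPKM (SD, n = 3) in PBS and 0.0731 ± 0.0267 FPKM with PM2.5 and fell 4.45-fold (log2 fold change -2.15, SE 0.30, edgeR adjusted p = 9.23e-05). Mthfd2l was at 0.819 ± 0.0425 and 0.435 ± 0.0838 FPKM and fell 1.80-fold (log2 fold change -0.85, SE 0.15, edgeR adjusted p = 5.01e-04). Both were under 1 FPKM in both groups. The thymidylate synthase gene Tyms fell by 0.15 on the log2 scale (edgeR adjusted p = 0.0227). Tyms did not pass with DESeq2 (adjusted p = 0.0739), without PBS replicate 2 (0.0662), without PBS replicate 3 (0.0635), without PM2.5 replicate 1 (0.0635) and, in the same way, without PM2.5 replicate 3 (0.0624); its adjusted p lay between 0.00362 and 0.0739 over 14 alternatives.

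Several genes of plasma membrane transporters of serine and glycine rose. Of 18 serine and glycine supply and use genes tested, out of 22 listed, 9 rose (50%, against 35.2% of all genes tested), 4 fell (22.2%, against 35.3%) and 5 did not pass (median 0.20). Slc1a4, a transporter of neutral amino acids including serine, went from 4.24 ± 0.143 to 36.1 ± 0.276 FPKM (SD, n = 3), 8.90-fold. Slc38a2 and Slc1a5, which also carry small neutral amino acids, rose 2.91-fold and 2.69-fold, and Serinc1, a membrane protein named for serine incorporation into lipids, 1.58-fold. The glycine transporter Slc6a9, named after its values were seen, had the largest rise of the list: 0.817, 0.886 and 0.998 FPKM in the PBS libraries against 18.7, 15.4 and 19.3 FPKM, 20.7-fold. Sfxn1, a mitochondrial serine transporter, rose only 1.15-fold (log2 fold change 0.20, SE 0.03). Its relative Sfxn3 fell 1.50-fold, Gcat, which acts in threonine breakdown to glycine, 1.43-fold, Sptlc2, a subunit of the enzyme that joins serine to a fatty acid in sphingolipid synthesis, 1.20-fold, and Pgam1, the glycolytic mutase that draws phosphoglycerate away from serine synthesis, 1.11-fold.

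The glycine cleavage and choline-derived list had 6 of 8 genes tested, with 2 that rose and 3 that fell. Among all genes tested, 35.2% rose and 35.3% fell, so the 2 rises of 6 lie near the share of all genes. Dld, a subunit shared with the pyruvate and other dehydrogenase complexes, rose 1.86-fold from 46.5 ± 2.77 FPKM (SD, n = 3). Gldc, the glycine decarboxylase itself, rose 4.18-fold but had only 17 counts over the PBS libraries and 85 over the PM2.5 libraries. The carrier protein gene Gcsh fell 1.16-fold, and Sardh and Pipox, which act on sarcosine, fell 5.51-fold and 2.57-fold from under 0.5 FPKM. Of 12 methionine cycle genes tested out of 16 listed, 6 rose, 2 fell and 4 did not pass (median 0.22). These counts stand against the same shares of all genes, 35.2% and 35.3%, and the difference was not tested. The rises were small: Enoph1 and Mtap, of the methionine salvage pathway, by 1.47-fold and 1.25-fold, Mat2b, a regulatory subunit of methionine adenosyltransferase, by 1.28-fold and Ahcyl1 by 1.20-fold. Ahcy, the hydrolase of S-adenosylhomocysteine, fell 1.33-fold and its relative Ahcyl2 fell 2.15-fold. The catalytic subunit gene Mat2a stood at 0.35 on the log2 scale and did not pass (adjusted p = 0.0784); it passed with DESeq2 (0.000597) and without PBS replicate 2 (0.00891), between 0.000597 and 0.186 over 14 alternatives. Of the 2 purine synthesis enzymes that use formyl folate, Gart rose 1.43-fold and Atic did not pass (-0.06 on the log2 scale, adjusted p = 0.0866).

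**Figure D5:**
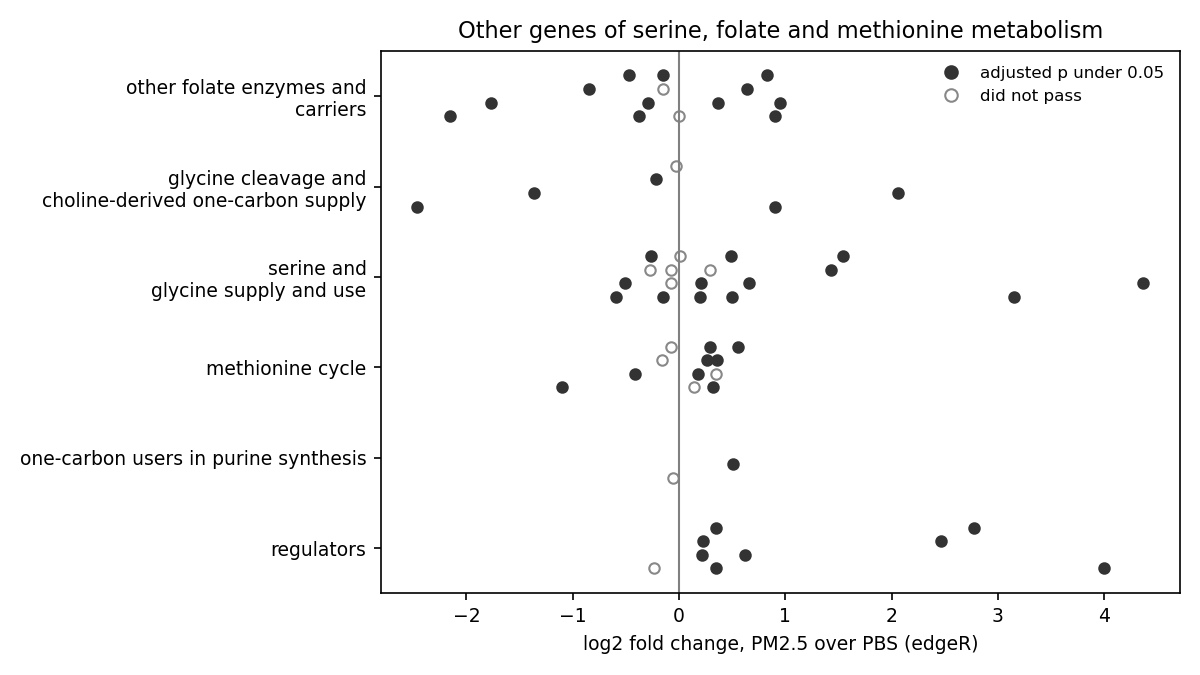
Log2 fold change (PM2.5 over PBS, edgeR) of the other genes of serine, folate and methionine metabolism and of their regulators, 1 point per gene in a row per list, filled where the adjusted p was under 0.05. Filled points lie on both sides of 0 in the upper 4 rows, while the regulators that passed all lie to the right.

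Genes of 9 regulators known to act on this pathway (transcription factors, the kinase Mtor and the histone demethylase Kdm4c) were listed as well. Of these, 8 rose (88.9%, against 35.2% of all genes tested) and 1, Mycn, did not pass. The list was chosen with earlier results of these data known, so this share is no independent support. Atf4 rose 5.54-fold, its relative Atf5 6.88-fold and Ddit3, the gene of the stress factor CHOP, 16.0-fold, whereas Myc, which drives growth metabolism in activated T cells, rose 1.54-fold. The others that rose did so by 1.17-fold to 1.28-fold. These are levels of RNA in the same libraries, and no link from any of them to the enzyme genes was tested.

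The genes with the most similar profile were sought for the 6 enzymes that changed at least 2-fold, by the root mean square difference of log2 CPM over the 6 libraries, each gene centred on its mean. The search covered 9307 genes outside the lists whose mean was 5 CPM or more. Predicted gene models, genes with clone-type names, pseudogenes and antigen receptor segments were left out of it. The nearest gene to Psat1 was Gars, the glycyl-tRNA synthetase (difference 0.0157), and the nearest to Shmt2 was Sars, the seryl-tRNA synthetase (0.0255). Phgdh lay nearest to Dennd5a (0.0347), Mthfd2 to the amino acid transporter gene Slc7a5 (0.0458) and Psph to Ppp2r3a (0.0791). Such profiles were shared by many genes: 149 lay within 0.2 of Shmt2, 101 of Psat1, 66 of Phgdh, 49 of Psph and 19 of Mthfd2. For Aldh1l2 none did, and the nearest, Cth, a cysteine-producing enzyme gene that rose 54.8-fold, lay at 0.777. With 6 libraries in 2 groups, these distances mostly reflect the size of the difference between the groups.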

How the data were processed

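RNA-seq of 6 libraries was used as 1 table of genes. The authors deposited counts and FPKM values per Ensembl gene, per the file headers. The submitters' processing notes name TopHat2 2.0.6 and the mm10 genome. How reads were counted, with which annotation, and how strand and multiple placement were treated is not given in the sources used here. In 10109 genes the FPKM equal the count per library total and per 1 fixed length to within 0.0106%.

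The filterByExpr function of edgeR 4.0.16 (R 4.3.3; at least 10 counts, and 15 in total) retained 12967 genes, holding 99.9% of counts. PM2.5 was compared with PBS by the quasi-likelihood F test (robust glmQLFit, TMM factors, two-sided), also tested on simulated data, and p-values were adjusted over all these genes (Benjamini-Hochberg, threshold 0.05). An SE is the size of the log2 fold change divided by the root of F. Ratios and sums of FPKM were compared by two-sided exact permutation over libraries. Replicates of a group differed by more than counting error (chi-square per degree of freedom of 7.57 to 9.89), so none was treated as a library deposited again; this does not show separate cultures or animals.

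The members and lists were chosen with earlier results of these data known. Named genes are all 9 members, up to 4 genes per list and direction with the smallest adjusted p, genes whose call is discussed, and the nearest profile of each member changed at least 2-fold. Some genes of the lists are counted but not reported here by name. Alternatives were RLE scaling, library totals, DESeq2 1.42.0, no filter, a filter at 5 CPM, limma 3.58.1 on log2(FPKM + 1) and log2(FPKM + 0.1), a replicate block and leaving out each library. Near copies were sought with BLAST+ 2.17.0 (at least 90% identity over 200 bases). Promoter sequences are from RefSeq.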

Additional observations from a re-analysis of the deposited data

How the results depend on the processing

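The count of 9 enzyme genes that rose held under all 14 alternatives. Over them the log2 fold changes ran from 2.10 to 2.24 for Phgdh, 1.86 to 2.00 for Psat1, 1.81 to 2.28 for Psph, 1.73 to 1.84 for Shmt2, 2.73 to 2.94 for Mthfd2, 0.68 to 0.79 for Mthfd1l, 0.69 to 0.84 for Shmt1, 0.15 to 0.25 for Mthfd1 and 1.52 to 6.93 for Aldh1l2. Over all genes 7342 (filter at 5 CPM, 9923 tested) to 9582 (no filter, 19141 tested) were called, against 9149 of 12967. DESeq2 called 8369. Of the other pathway genes 21 to 23 rose and 14 to 20 fell. The sums and ratios kept their direction without any single library.

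Replicate numbers in the titles are shared by the groups. Deviations of same-numbered libraries from their group means correlated at 0.0134, 0.0072 and 0.045, so no shift shared by number was seen. These values cannot settle whether same-numbered libraries came from the same culture or animal. With the replicate block 9003 genes passed and all 9 enzyme genes still rose. Depth limits Aldh1l2 in the PBS group, where 0 counts in replicate 1 allow up to 0.135 CPM.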

Other observations

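Slc38a1, a transporter of glutamine and other small neutral amino acids, singled out after its values were seen, was at 51.7, 52.4 and 51.0 FPKM in the PBS libraries and at 33.8, 73.7 and 73.4 FPKM in the PM2.5 libraries. PM2.5 replicate 1 lay below all PBS libraries and the other PM2.5 libraries above them. The log2 fold change was 0.29 (SE 0.35, edgeR adjusted p = 0.504), and 0.57 without PM2.5 replicate 1 (edgeR adjusted p = 3.99e-07, between 3.99e-07 and 0.826 over 14 alternatives, of which it passed in 1).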
